A study of Mus musculus with 15 samples.

Results

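The 10 serotonin receptor genes Htr1a, Htr1b, Htr1d, Htr1f, Htr2a, Htr2c, Htr4, Htr5a, Htr6 and Htr7 were followed across 2 brain regions and 2 genotypes of mouse. They were taken by symbol from a table of 26595 genes. No measured value entered that rule, though earlier results of these data were known when it was chosen. Both regions, cortex and striatum, had been taken for RNA sequencing from C57Bl/6 males at 5 months of age. The mutant group (KO) carried the genotype SLC1a4 -/-, that is, it was labelled null for the gene of ASCT1, a transporter of small neutral amino acids, and the control group was wild type (WT). How the null allele was made is not given in the sources used here. There were 4 libraries of WT cortex (replicates 5 to 8), 4 of KO cortex (replicates 1 to 4), 4 of WT striatum (replicates 5 to 8) and 3 of KO striatum (replicates 2 to 4). The libraries held 22990233 to 30276815 counted reads, and the receptor genes had from 9 reads (Htr1d in a cortex library) to 3399 reads (Htr2c in a striatum library). The labels do not state whether the replicates of a group were separate animals. The p-values therefore reflect the spread among these libraries alone, which could be technical.

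Serotonin is made by neurons of the brainstem raphe nuclei, whose axons reach almost the whole forebrain. Most of its receptors are G-protein coupled and sit on the neurons that receive or release transmitter. Receptors of the Htr1 family and Htr5a couple to inhibitory G proteins, which lower cyclic AMP and open potassium channels. Those of the Htr2 family couple to Gq, which activates phospholipase C. Htr4, Htr6 and Htr7 couple to stimulatory G proteins and raise cyclic AMP. In the striatum, the projection neurons that form most of the tissue carry several of these receptors, and Htr1b is known as a receptor of their axon terminals.

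Values are normalized counts, that is, reads per gene divided by 1 scaling factor per library. The labels fitted the RNA. Slc1a4 stood at 265 ± 28.7 normalized counts in KO cortex (SD, n = 4) against 1624 ± 127 in WT cortex (SD, n = 4), or 16.3% of the WT level (two-sided exact permutation p = 0.029). In striatum 17.7% of the WT level remained (exact permutation p = 0.057, the smallest that 3 against 4 libraries allow). All 12 listed marker genes of striatal projection neurons were higher in striatum in both genotypes, among them the dopamine receptors Drd1 (5651 ± 1876 normalized counts in WT striatum against 468 ± 266 in WT cortex, SD, n = 4 each) and Drd2. Their summed count ran from 98521 to 218511 in WT striatum, 50031 to 115028 in KO striatum and 10967 to 26151 in cortex, with the lowest striatal value in KO replicate 4. None of the 12 was at 0. The 12 choroid plexus markers summed to 151698 in WT striatum replicate 5 and 93929 in KO striatum replicate 4, against 2013 to 7187 in the other striatum libraries and 691 to 6708 in cortex. Markers of hypothalamus (10 genes) summed to 333 to 9643 in striatum and 51.0 to 91.7 in cortex, where Sim1 was at 0 in all 4 KO libraries. Those of thalamus, septum and pallidum (12 genes) were highest in the same KO replicate 4 (54639) and in WT replicate 8 (34212). The 3 striatum libraries KO replicate 4, WT replicate 5 and WT replicate 8 thus stood apart in these sums. In bulk RNA, fewer cells of a type and less RNA per cell cannot be told apart.

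The 3 receptor genes with the highest striatum-to-cortex differences were Htr1d, Htr1b and Htr2c, and the 250 bases before their transcription starts are shown because these genes were high in striatum together. The sequences are from RefSeq on GRCm38.p6, which matched 9 of the 10 genes, all but Htr4. Htr1d has 2 listed starts, of which the one nearest to the annotated gene start is shown. Capitals mark matches to any of 5 motifs searched on both strands. They were the TATA box (TATAAA), the GC box (GGGCGG), the cyclic AMP response element (TGACGTCA), the AP-1 site (TGANTCA) and the E-box (CAGCTG). None of these motifs overlaps another in the 3 windows.
Htr1d (chr4:136423274-136423523, plus strand): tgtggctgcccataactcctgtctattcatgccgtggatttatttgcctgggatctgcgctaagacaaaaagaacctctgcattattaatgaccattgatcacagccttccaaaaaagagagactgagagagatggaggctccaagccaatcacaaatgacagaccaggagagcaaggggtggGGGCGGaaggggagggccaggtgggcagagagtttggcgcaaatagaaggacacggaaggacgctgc
Htr1b (chr9:81633833-81634082, minus strand): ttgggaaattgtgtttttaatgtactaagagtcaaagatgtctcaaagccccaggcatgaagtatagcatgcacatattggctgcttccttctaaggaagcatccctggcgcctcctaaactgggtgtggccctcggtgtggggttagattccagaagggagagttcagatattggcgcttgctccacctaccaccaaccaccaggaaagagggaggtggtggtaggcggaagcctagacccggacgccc
Htr2c (chrX:146962263-146962512, plus strand): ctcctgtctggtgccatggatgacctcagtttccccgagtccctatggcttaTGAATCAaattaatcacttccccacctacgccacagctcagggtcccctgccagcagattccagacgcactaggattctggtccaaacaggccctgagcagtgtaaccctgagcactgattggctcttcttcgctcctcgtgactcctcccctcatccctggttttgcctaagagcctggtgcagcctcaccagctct
The Htr1d window held 1 GC box, whose first base lay at position -67 from the start, and the Htr2c window held 1 AP-1 site at position -198. The Htr1b window held no match, so no motif searched was common to the 3 windows. Among 32851 promoters of the same length, 32.7% held a GC box, 6.75% an AP-1 site, 13% the E-box, 12.4% the TATA box and 1.55% the cyclic AMP response element. Over the 9 windows the GC content ran from 49.2% (Htr1f) to 82% (Htr7), against a median of 52.4% over all promoters. These matches describe the letters only.

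Between striatum and cortex, serotonin receptor genes went in both directions. Htr1b, Htr1d, Htr2c and Htr4 were higher in striatum, and Htr1a, Htr1f, Htr2a and Htr5a were lower, in WT. Htr6 and Htr7 did not pass the test. Of the 10 genes, 8 were called at a limma adjusted p below 0.05, against 50.5% of the 17030 genes tested in WT. In each direction there were 4, against 24.9% of all genes that were higher and 25.7% that were lower. In KO, 7 of 10 were called, against 37.9% of all genes, with the same 4 higher (18.4% of all genes) and Htr1f, Htr2a and Htr5a lower (19.5%). The libraries of the tissues did not overlap for 8 genes in WT, against 47.3% of all genes, and for 7 in KO, against 41.5%. Htr1a was called in WT only, and the difference of the tissue effects between the genotypes did not pass (0.56 on the log2 scale, limma adjusted p = 0.98). The median log2 difference of the 10 genes was 0.06 in WT and 0.21 in KO, beside 0.0058 and 0.0024 over all genes tested. All 10 genes passed the filter on low values, each reaching 10 normalized counts in all 7 striatum libraries and in at least 7 of the 8 cortex libraries.

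**Figure D1:**
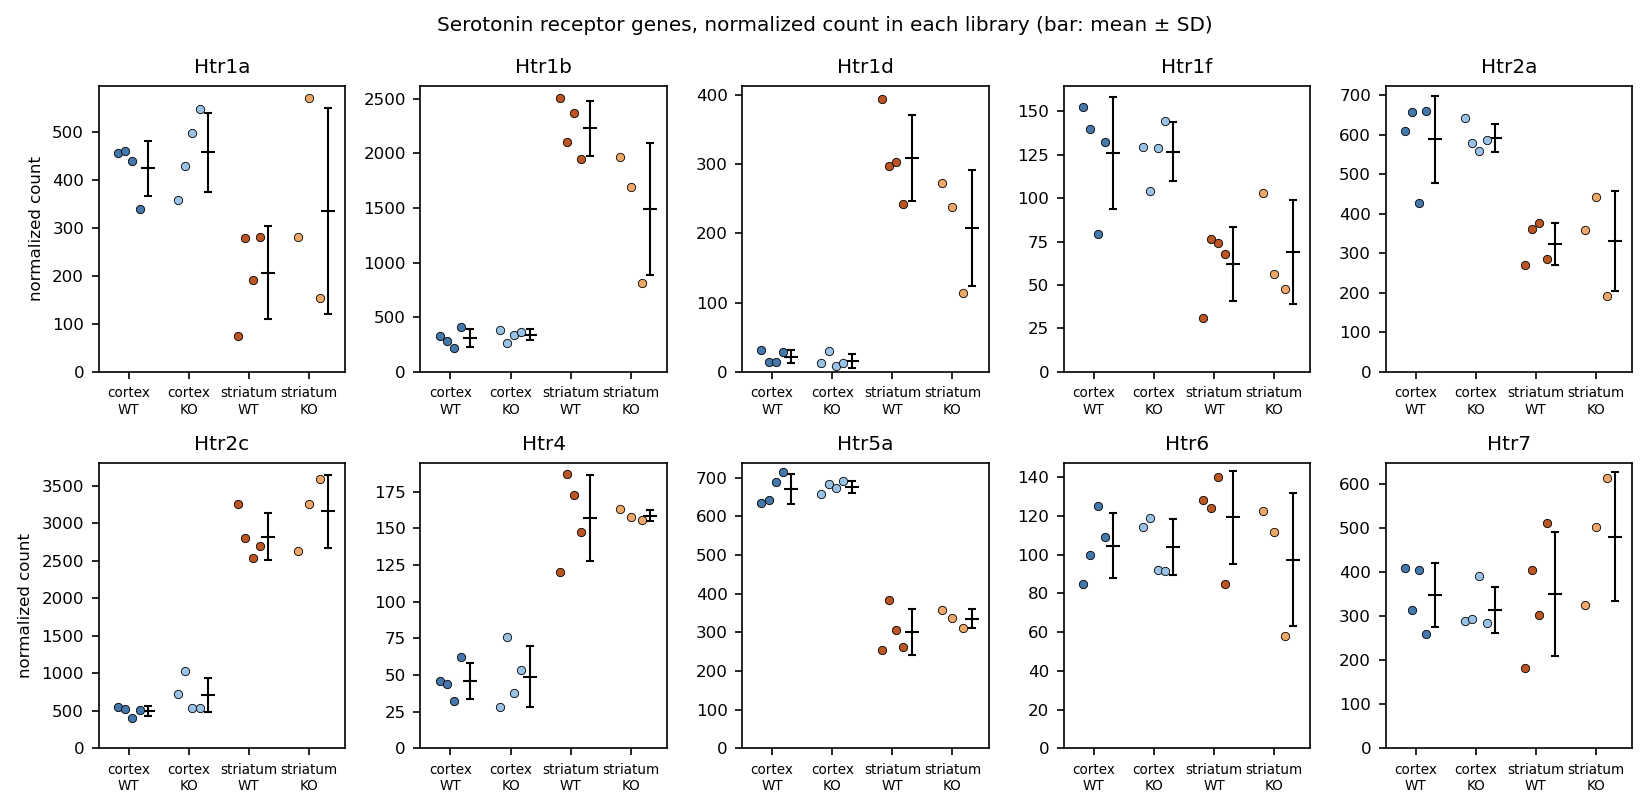
Normalized counts of the 10 serotonin receptor genes (y axis, 1 panel per gene) in each library of the 4 groups (x axis). Points are libraries and the bar beside them is the mean with its SD. Htr1b, Htr1d, Htr2c and Htr4 lie higher in every striatum library than in every cortex library, with Htr1b in KO replicate 4 (809) the lowest striatal value of that gene.

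Among the receptors coupled to inhibitory G proteins, Htr1b (ENSMUSG00000049511, chr9:81628291-81633828 on GRCm38, minus strand), a receptor of axon terminals that lowers transmitter release, had the highest counts in striatum. Its normalized counts were 2501, 2103, 2369 and 1947 in WT striatum replicates 5 to 8 and 1962, 1689.9 and 809 in KO striatum replicates 2 to 4. In cortex they were 329, 279.5, 219 and 414 in WT and 386, 268, 337 and 365 in KO. Every striatum library was above every cortex library, and KO replicate 4 stood well below the other striatum libraries. The difference was 2.87 on the log2 scale in WT (SE 0.24, limma adjusted p = 2.9e-07) and 2.05 in KO (SE 0.26, limma adjusted p = 3.1e-05). The value is uncertain in one respect. The antisense gene D430036J16Rik covers 852 exonic bases of Htr1b (18% of its exon length), the strand setting of the counting is not given in the sources used here, and that gene was itself counted at 206 to 261 in WT striatum and 39.9 to 55.6 in WT cortex.

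Htr1d (ENSMUSG00000070687, chr4:136423524-136444398, plus strand), which like Htr1b is a release-inhibiting receptor, had the highest difference between tissues of the 10 genes. Striatum held 394, 297, 303 and 243 normalized counts in WT replicates 5 to 8 and 273, 238 and 113 in KO replicates 2 to 4. Cortex held 31.1, 14.3, 14.6 and 28.1 in WT and 13.2, 29.9, 8.05 and 12.1 in KO. Cortex and striatum did not overlap, and the lowest striatum library was again KO replicate 4. On the log2 scale the difference was 3.81 in WT (SE 0.37, limma adjusted p = 1.4e-06), a 14.1-fold change, and 3.69 in KO (SE 0.40, limma adjusted p = 8.4e-06). In cortex these values rest on 9 to 33 reads per library.

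Htr1a (ENSMUSG00000021721, chr13:105443639-105448122, plus strand), the autoreceptor of raphe neurons and an inhibitory receptor of cortical and hippocampal neurons, went the other way. WT cortex had 456, 460.2, 439.7 and 339.9 normalized counts in replicates 5 to 8, and WT striatum 75.1, 278, 191 and 279.8. KO cortex had 358, 429, 496 and 547 in replicates 1 to 4, and KO striatum 280.3, 571 and 153 in replicates 2 to 4. The WT tissues did not overlap, whereas in KO 1 striatum library was above all cortex libraries. Striatum was lower by -1.20 on the log2 scale in WT (SE 0.39, limma adjusted p = 0.020), while the KO value of -0.63 (SE 0.43, limma adjusted p = 0.26) did not pass. Without WT striatum replicate 5 the WT difference was -0.77 and its limma adjusted p 0.060 (0.0034 to 0.060 over all settings), while the call was kept in the 2 fits that left it out together with KO striatum replicate 4.

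Htr1f (ENSMUSG00000050783, chr16:64924729-65105854, minus strand), a further inhibitory receptor, was lower in striatum. Its counts were 153, 139.8, 79.5 and 132 in WT cortex and 30.7, 76.2, 74.0 and 67.8 in WT striatum. In KO they were 129, 104, 129 and 145 in cortex and 103, 56.3 and 47.6 in striatum. The tissues did not overlap in either genotype, though the highest KO striatum library lay just under the lowest KO cortex library. Striatum differed by -1.05 on the log2 scale in WT (SE 0.30, limma adjusted p = 0.0094) and by -0.94 in KO (SE 0.32, limma adjusted p = 0.033). The KO call was lost in 5 of the 15 fits that left out 1 library, without KO cortex replicate 1, 3 or 4 (adjusted p = 0.066, 0.065 and 0.077) or KO striatum replicate 3 or 4 (0.099 and 0.13). Over all settings it ran from 0.0093 to 0.14.

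Htr5a (ENSMUSG00000039106, chr5:27842149-27855088, plus strand) had the smallest standard errors of the 10 and was lower in striatum. WT cortex held 635, 643, 689 and 716 normalized counts and WT striatum 254, 384, 307 and 262. KO cortex held 657, 685, 674 and 692 and KO striatum 358, 338 and 311. All cortex libraries were above all striatum libraries. The difference was -1.17 on the log2 scale in WT (SE 0.11, limma adjusted p = 7.3e-07) and -1.01 in KO (SE 0.12, limma adjusted p = 1.3e-05).

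The 2 members of the Gq-coupled family differed in direction. Htr2a (ENSMUSG00000034997, chr14:74640840-74709494, plus strand), the receptor of cortical pyramidal neurons on which psychedelic drugs act, was lower in striatum. It stood at 610.2, 657, 428 and 659.7 in WT cortex, 271, 361, 378 and 285 in WT striatum, 642, 578, 558 and 586 in KO cortex, and 358, 443 and 193 in KO striatum. The tissues did not overlap in either genotype. Its log2 difference was -0.85 in WT (SE 0.21, limma adjusted p = 0.0037) and -0.91 in KO (SE 0.23, limma adjusted p = 0.0057).

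Htr2c (ENSMUSG00000041380, chrX:146962513-147197277, plus strand), a receptor of striatal neurons that is also abundant in the choroid plexus, was higher in striatum. Its counts were 3259.6, 2800.3, 2534 and 2695 in WT striatum and 2639, 3257 and 3598 in KO striatum. Cortex had 552, 527, 408 and 506 in WT and 731, 1031, 544 and 542 in KO. Striatum was above cortex in every library, and KO cortex replicate 2 was the highest cortex library. The log2 difference was 2.50 in WT (SE 0.18, limma adjusted p = 5.7e-08) and 2.19 in KO (SE 0.19, limma adjusted p = 8.9e-07). The choroid plexus gene Ttr stood at 130616 in WT striatum replicate 5 and 77905 in KO striatum replicate 4, the libraries with the highest Htr2c of their groups. KO striatum replicate 3 had Ttr at 623 and Htr2c at 3257. Without both Ttr-rich libraries the difference in WT was 2.43 and in KO 2.09 on the log2 scale, both called. The part of choroid plexus RNA in the level of Htr2c was not tested.

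Of the receptors coupled to stimulatory G proteins, only Htr4 passed the test between tissues. Htr4 (ENSMUSG00000026322) had 121, 187, 173 and 147 normalized counts in WT striatum and 163, 158 and 156 in KO striatum, against 46.1, 43.7, 32 and 62.2 in WT cortex and 28.2, 75.8, 37.6 and 53.2 in KO cortex. The tissues did not overlap. It was higher in striatum by 1.77 on the log2 scale in WT (SE 0.26, limma adjusted p = 6.7e-05) and by 1.78 in KO (SE 0.28, limma adjusted p = 0.00022).

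Htr6 (ENSMUSG00000028747, chr4:139061108-139075570, minus strand), known from striatal and cortical neurons, was at 84.8 to 125 in WT cortex, 91.4 to 119 in KO cortex, 84.8 to 140.2 in WT striatum and 58.2 to 123 in KO striatum. Its tissues overlapped in both genotypes, with log2 differences of 0.18 in WT (95% interval -0.30 to 0.65) and -0.16 in KO (95% interval -0.67 to 0.36). Htr7 (ENSMUSG00000024798, chr19:35958734-36057507, minus strand), a receptor known from thalamus, hypothalamus and hippocampus, was at 410, 315, 404 and 259.7 in WT cortex and 288, 293, 391 and 284 in KO cortex. In striatum it was at 183, 405, 302 and 511 in WT and 324, 502 and 614 in KO. Its tissues overlapped, and the striatum libraries were spread far wider than the cortex libraries. The log2 differences were -0.06 in WT (95% interval -0.64 to 0.52) and 0.58 in KO (95% interval -0.05 to 1.20, limma adjusted p = 0.14). Beside these values, the summed hypothalamus markers were 333, 2501, 1421 and 9643 in WT striatum replicates 5 to 8 and 3511, 3555 and 5222 in KO striatum replicates 2 to 4. Htr7 had the same order of libraries as that sum within each striatum group, a likeness seen after the values were known, and its part in the result was not tested.

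**Figure D2:**
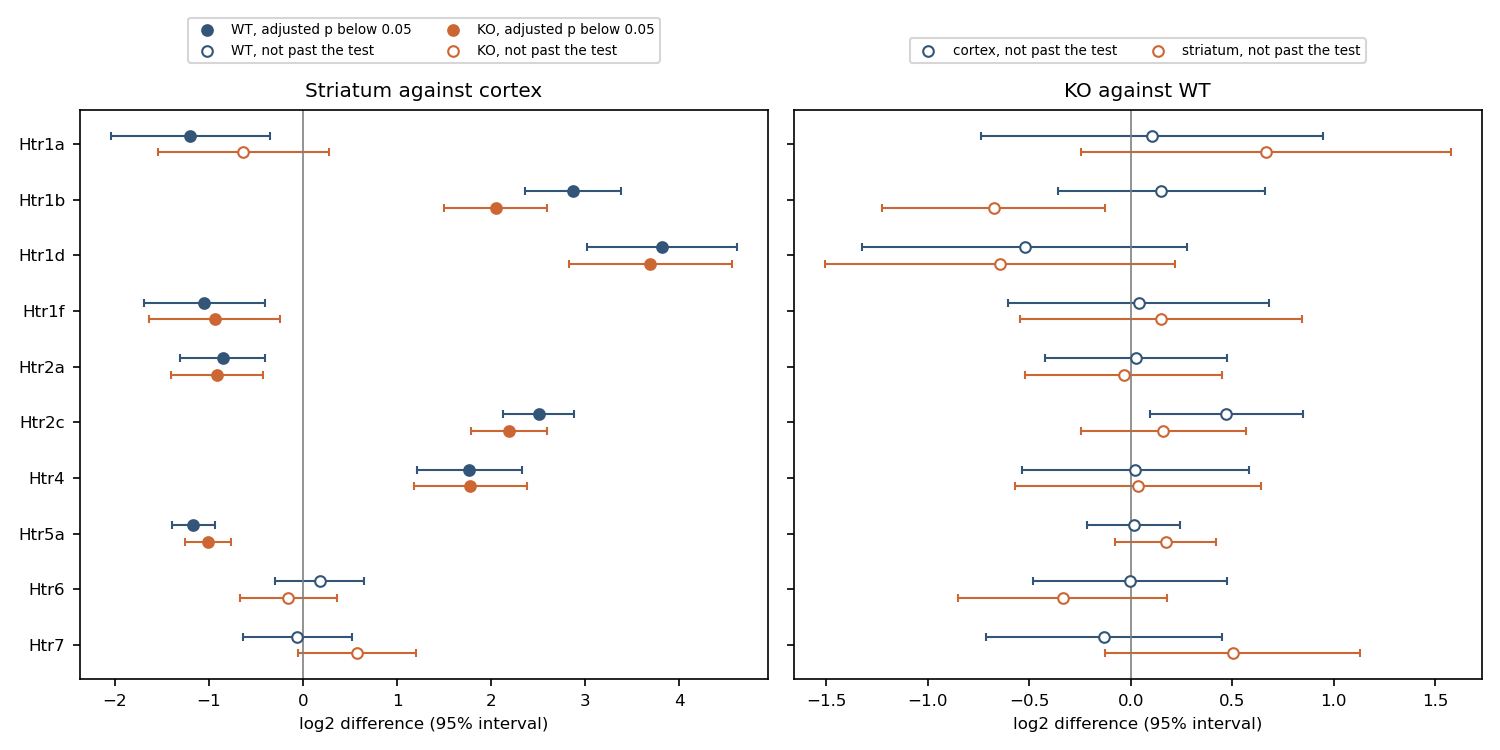
Log2 differences of the 10 receptor genes (x axis) between striatum and cortex in each genotype (left panel) and between KO and WT in each tissue (right panel), with 95% intervals from limma. Filled points passed an adjusted p of 0.05, which 8 genes did in WT and 7 in KO on the left and 0 on the right.

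Levels were compared between genes as RPKM, that is, reads scaled by exon length and library size. In WT cortex Htr5a was highest at 4.68 ± 0.235 RPKM (SD, n = 4), with no overlap with Htr2a, the next (3.94 ± 0.743), though the highest Htr7 library (4.54) was above the lowest Htr5a library (4.45). Htr2a, Htr7 (3.83 ± 0.807) and Htr1a (3.55 ± 0.493) overlapped each other. Htr1b (2.46 ± 0.646), Htr2c (2.0 ± 0.264), Htr1f (1.83 ± 0.475) and Htr6 (1.68 ± 0.262) followed, each overlapping the gene before it. Htr4 (0.351 ± 0.0938) and Htr1d (0.258 ± 0.103) were below all of these. KO cortex had the same gene at the top (Htr5a, 4.73 ± 0.113 RPKM, SD, n = 4) and the same 2 at the bottom. With the longest transcript as length, Htr2c (5.49 RPKM) came first in KO cortex, overlapping Htr5a.

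In WT striatum the order was led by Htr1b (18.03 ± 1.98 RPKM, SD, n = 4), then Htr2c (11.6 ± 1.30), which did not overlap each other or any other receptor gene. They were 38% and 24.4% of the summed level of the 10 genes. Htr7 (3.94 ± 1.59) and Htr1d (3.69 ± 0.745) overlapped each other, and Htr1d was in turn above Htr2a (2.21 ± 0.358). Htr2a, Htr5a (2.14 ± 0.425), Htr6 (1.95 ± 0.386), Htr1a (1.76 ± 0.829), Htr4 (1.22 ± 0.226) and Htr1f (0.921 ± 0.315) each overlapped the next. In KO striatum Htr2c (13.4 ± 2.09 RPKM, SD, n = 3) and Htr1b (12.5 ± 5.05) overlapped. By the longest transcript (4883 against 9328 bases), Htr2c stood at 22.1 RPKM in WT striatum and was first there, overlapping Htr1b, and in KO striatum it was first at 25.6 RPKM with no overlap. The 10 genes summed to 24.6 ± 1.44 RPKM in WT cortex, 25.6 ± 0.555 in KO cortex (SD, n = 4 each), 47.4 ± 1.53 in WT striatum (SD, n = 4) and 45.8 ± 6.92 in KO striatum (SD, n = 3).

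**Figure D3:**
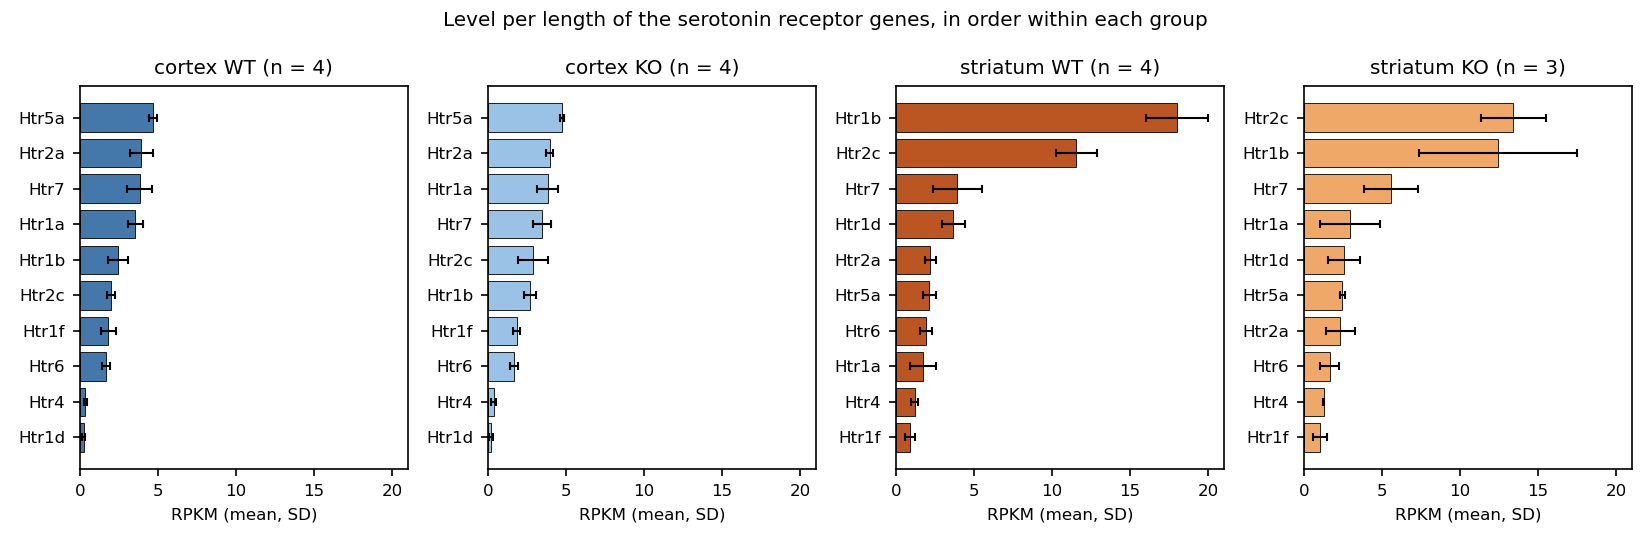
Level per length of the 10 receptor genes (x axis, RPKM) in order within each of the 4 groups, as the mean over libraries with its SD, by merged exon length. By that length Htr5a leads in cortex at 4.68 (WT) and 4.73 (KO), Htr1b leads in WT striatum at 18.03, and Htr2c and Htr1b lie together in KO striatum. By the longest transcript Htr2c leads in KO cortex and in both striatum groups.

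Between KO and WT, no serotonin receptor gene passed the test in either tissue. In cortex 0 of 10 were called by limma, against 0.00587% of all genes (1 gene, Slc1a4). The libraries of the 2 genotypes overlapped for all 10, as for all but 4.02% of the genes tested. Htr2c was the only one of the 10 with an unadjusted p below 0.05, which 2.51% of all genes had. It was at 712 ± 231 in KO cortex against 498 ± 63.1 in WT cortex (SD, n = 4 each). The log2 difference was 0.47 (SE 0.18, limma adjusted p = 1). Without KO cortex replicate 2 it was 0.28. Ttr was at 5665 and 4917 in KO cortex replicates 1 and 2, the libraries highest in Htr2c, and 1143 and 3668 in replicates 3 and 4, against 428 to 1680.1 in WT cortex, and its part in the value was not tested. Htr1d, at 15.8 ± 9.67 in KO and 22.0 ± 8.82 in WT (SD, n = 4 each), had a log2 difference of -0.52 (95% interval -1.32 to 0.28). For the other 8 genes the log2 differences lay between -0.13 (Htr7) and 0.15 (Htr1b).

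In striatum 0 of 10 were likewise called by limma, against 0.0763% of all genes (13 genes), while 1 of the 10, Htr1b, had an unadjusted p below 0.05, as had 15.3% of all genes. All 10 overlapped between the genotypes, while 8.07% of all genes did not. Htr1b had means of 1487 ± 603 for the KO libraries (SD, n = 3) and 2230.1 ± 251 for those of WT (SD, n = 4). Its log2 difference was -0.68 (95% interval -1.23 to -0.13, limma adjusted p = 0.25). Htr1d stood at 208 ± 83.8 in KO and 309 ± 62.5 in WT, a difference of -0.64 (95% interval -1.51 to 0.22, limma adjusted p = 0.46). KO replicate 4 was the lowest library for both, and without it the differences were -0.28 for Htr1b and -0.26 for Htr1d. That library was also lowest in striatal projection neuron markers, of which 0 of 12 were called between genotypes by limma, 7 had an unadjusted p below 0.05 and 12 had a log2 difference below 0 (median -0.83). So both genes were set beside that sum, a comparison chosen after the values were seen. Per 1000 counts of the 12 markers, Htr1b stood at 17.1, 15.4 and 16.2 in KO striatum replicates 2 to 4 and at 11.45 to 19.8 in WT striatum. Htr1d stood at 2.37, 2.17 and 2.26 in KO and 1.66 to 2.46 in WT. On this scale the 3 KO libraries lay within the WT range for both genes, but its top was WT replicate 8 alone (19.8 and 2.46). WT striatum replicates 5 to 7 were all below the KO libraries, at 11.45, 14.15 and 12.98 for Htr1b. For Htr1d they were also below them, at 1.80, 1.995 and 1.66. Htr2c on the same scale stood at 22.9, 29.8 and 71.9 in KO and 13.9 to 27.4 in WT, so that 2 KO libraries lay above the WT range. For these genes the part of the markers in the difference was not tested further.

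Htr1a and Htr7 had the highest positive values in striatum. Htr1a had a mean of 335 ± 214 over the KO libraries (SD, n = 3) and 206 ± 96.7 over those of WT (SD, n = 4), a log2 difference of 0.67 (95% interval -0.24 to 1.58, limma adjusted p = 0.47). Single libraries moved it, to 0.18 and 1.1 when KO replicate 3 or 4 was left out and to 0.24 when WT replicate 5 was. Htr7 was at 479.9 ± 146 in KO and 350.3 ± 140.4 in WT, a difference of 0.50 (95% interval -0.13 to 1.13, limma adjusted p = 0.43), which was 0.23 without WT replicate 5 and 0.30 without KO replicate 4. Htr6 had -0.34 (95% interval -0.85 to 0.18) and was near 0 without KO replicate 4. The other 5 genes lay between -0.03 (Htr2a) and 0.17 (Htr5a). Beside these values, the cortical neuron gene Neurod2 was higher in KO striatum (309 ± 151, n = 3) than in WT striatum (62.3 ± 34.6, SD, n = 4, limma adjusted p = 0.030), the only one of 12 cortical excitatory markers called. Of the 12, 9 had a log2 difference above 0 and 3 below 0 (median difference 0.93). By limma 9 had an unadjusted p below 0.05, as had 15.3% of all genes, and 1 of these, Nrgn, was lower in KO (-0.57). Between tissues in WT, 10 of these 12 were called lower in striatum (25.7% of all genes). Foxp2 was called higher there (log2 difference 1.95, with 24.9% of all genes higher), and Rorb was not called. Foxp2, Rorb and Nrgn were the 3 below 0 between genotypes. The 12 summed to 16875 to 26309 in KO striatum and 14707 to 23859 in WT striatum, a sum that includes these 3. Nrgn had the highest mean in that sum and was lower in KO striatum (8190 against 12058), while Slc17a7 was higher (6471 against 2167). The part of these markers in the receptor values was not tested.

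The difference between KO and WT was also compared between the tissues. Of the 10 genes 0 were called by limma, against 0.00587% of all genes, and 1 had an unadjusted p below 0.05, as had 4.9% of all genes. For that gene, Htr1b, the striatal minus the cortical difference was -0.83 on the log2 scale (95% interval -1.58 to -0.08, limma adjusted p = 0.96), and -0.44 without KO striatum replicate 4. EdgeR, DESeq2 and voom on the recovered reads also called 0 of the 10 genes in each of these 3 comparisons. Of all genes, DESeq2 called 3 in cortex, 333 in striatum and 15 for the difference between tissues, and voom called 3 in striatum. The 95% intervals give the precision. For Htr5a the KO difference lay between -0.21 and 0.24 on the log2 scale in cortex, and for Htr1d in striatum between -1.51 and 0.22.

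**Figure D4:**
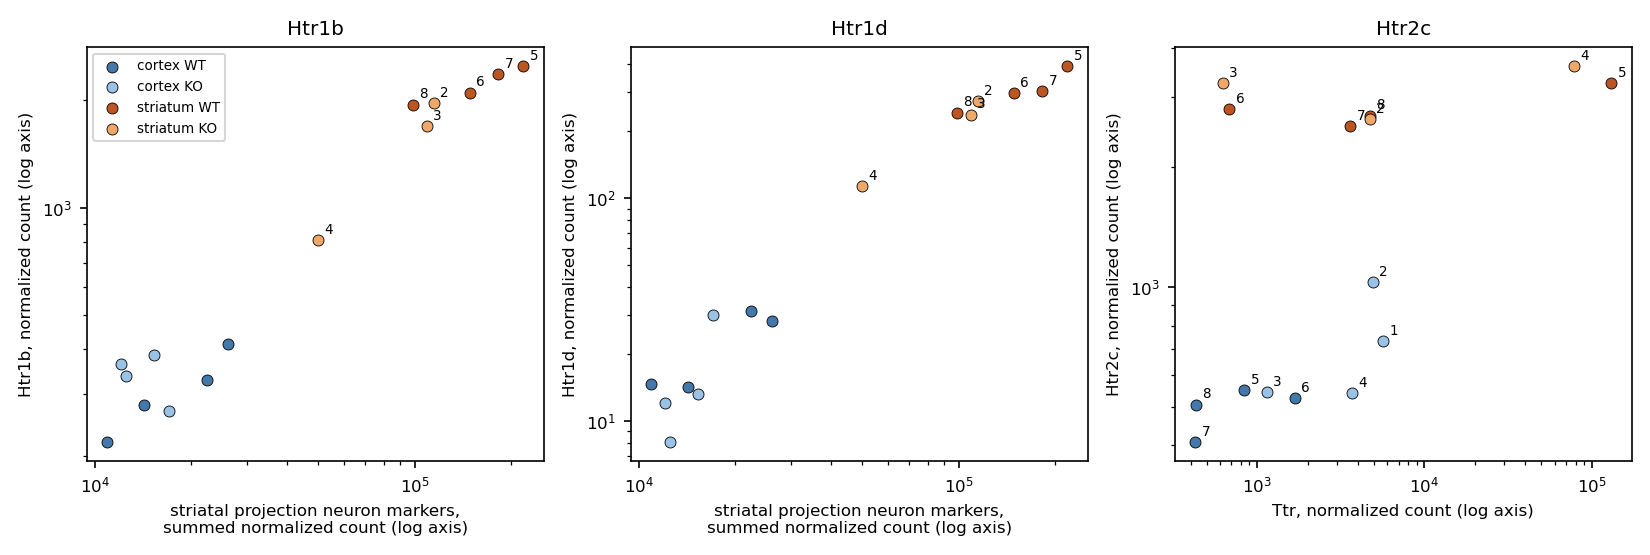
Htr1b and Htr1d (y axes, normalized count) against the summed normalized count of 12 striatal projection neuron markers, and Htr2c against Ttr, with all axes logarithmic. Points are libraries coloured by group and labelled with their replicate number (only striatum libraries in the panels of Htr1b and Htr1d). KO striatum replicate 4 is the lowest striatum library on both axes for Htr1b (809) and Htr1d (113). In striatum Htr2c lies between 2534 and 3598 and Ttr between 623 and 130616. The library with the most Ttr in each striatum group also has the most Htr2c, and the part of choroid plexus RNA was not tested.

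For each receptor gene, the 3 genes with the most similar profile were found over the 15 libraries, among 13505 genes whose mean normalized count reached 20. The measure was the mean absolute difference of the log2 values after centring each gene. For Htr1d they were Tacr1, the receptor of substance P (0.15), Penk, the enkephalin precursor (0.27), and Drd1 (0.32), where the median gene was at 1.89. For Htr1b they were Mei4 (0.20), Dlx6 (0.20) and the striatal adenylyl cyclase Adcy5 (0.21), with a median of 1.25. For Htr2c they were Srgap1 (0.21), Vat1l (0.22) and Necab2 (0.23), and for Htr4 Zfp521 (0.21), Hhip (0.22) and Dock10 (0.22). These genes of the 4 receptors higher in striatum were all higher in striatum themselves in mean count, which follows from their choice by profile. Among the receptors lower in striatum, Htr5a was nearest to the adenylyl cyclase Adcy2 (0.11), Brinp2 (0.11) and Nuak1 (0.11), and Htr2a to Csmd1 (0.11), Bbof1 (0.11) and Gramd2 (0.13). Htr1a was nearest to Unc5d (0.19), Frmpd3 (0.22) and Slc35f4 (0.24), and Htr1f to Ptpru (0.23), Stxbp5l (0.24) and Sult2b1 (0.24). Htr6 was nearest to Kif17 (0.10), Pde2a (0.12) and Dtnb (0.14), and Htr7 to Cd83 (0.16), Btbd11 (0.17) and Cib2 (0.17). The median gene was nearer to the receptors with smaller tissue differences, at 0.30 for Htr6, 0.39 for Htr7 and 0.48 for Htr2a. It was at 0.57 for Htr5a and Htr1f, 0.62 for Htr1a, 0.88 for Htr4 and 1.16 for Htr2c.

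Of 5 other serotonin receptor genes, 4 were in the table and 2 could be tested. Htr3a, a subunit of the serotonin-gated ion channel that marks a class of cortical interneurons, was lower in striatum, at 44.7 ± 2.95 against 164 ± 23.3 in WT cortex (SD, n = 4 each). Its log2 difference was -1.85 in WT (SE 0.29, limma adjusted p = 0.00011) and -1.62 in KO (SE 0.31, limma adjusted p = 0.00099). Between genotypes in striatum Htr3a had a log2 difference of 0.24 (limma adjusted p = 0.75), with KO at 61.4 ± 35.7 (SD, n = 3), and was called without KO replicate 4 (0.82, limma adjusted p = 0.022). Htr5b did not pass between tissues or genotypes, at 20.9 to 86.8 in KO striatum, with 86.8 in replicate 4, and 5.69 to 25.4 in WT striatum (log2 difference 1.57, limma adjusted p = 0.19). Its difference was 0.94 without KO replicate 4. Htr2b and Htr3b reached at most 2.19 and 2.24 normalized counts in any library.

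Several genes that make, store, take up or break down serotonin were higher in striatum. The list of 18 also holds Fev, Gata3 and Lmx1b, transcription factors of serotonin neurons, of which only Lmx1b could be tested. Of the 13 genes tested, Lmx1b included, 8 were higher and 1 lower in each genotype, against 24.9% and 25.7% of all genes in WT and 18.4% and 19.5% in KO. Those higher included the uptake transporter Slc22a3 (log2 difference 2.56 in WT, limma adjusted p = 1.8e-06, and 2.46 in KO, adjusted p = 1.2e-05), Ddc, the decarboxylase that serotonin and dopamine synthesis share (1.58 and 1.67), Pts, an enzyme of cofactor synthesis (0.67 and 0.45), and the monoamine oxidases Maoa (0.46 and 0.55) and Maob (0.59 and 0.55). Slc18a2, the vesicular monoamine transporter, was at 80.8 ± 29.1 in WT striatum against 4.8 ± 2.89 in WT cortex (SD, n = 4 each). Tph2, the synthetic enzyme of raphe neurons, was lower in striatum, at 18.2 ± 9.53 against 30.4 ± 1.59 in WT cortex (log2 difference -0.84, limma adjusted p = 0.033), and Slc6a4, the serotonin transporter of the same neurons, reached at most 5.08 normalized counts. The WT tissues overlapped for Tph2, which had only 9 to 27 reads per library in WT striatum. The median log2 difference of the 13 was 0.59 in WT, beside 0.0058 over all genes. Between genotypes limma called 0 of the 13 in cortex and in striatum, against 0.00587% and 0.0763% of all genes. By limma 0 had an unadjusted p below 0.05 in cortex and 1 in striatum, against 2.51% and 15.3% of all genes. In striatum DESeq2 called 333 of all genes, but in both tissues edgeR, DESeq2 and voom called 0 of the 13. Those with the smallest p were Slc22a3 (-0.26) and Maoa (-0.07) in cortex and Pts (-0.22, adjusted p = 0.22) and Aldh2 (-0.21) in striatum.

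Genes of the G proteins, effectors and regulators that act below these receptors went in both directions. All 38 were tested, with 11 higher and 19 lower in WT (24.9% and 25.7% of all genes) and 7 higher and 17 lower in KO (18.4% and 19.5%), and the difference between the directions was not tested. The 4 with the smallest p in each genotype, 5 genes in all, were Gnal, the stimulatory G protein of striatal neurons (log2 difference 1.90 in WT, limma adjusted p = 1.8e-08, and 1.57 in KO, adjusted p = 5.2e-07), Adcy5 (2.50 and 2.01), Adcy2 (-1.10 and -0.93), the inhibitory G protein Gnaz (-0.62 and -0.41) and the regulator Rgs7 (-0.70 and -0.69). The median log2 difference of the list was -0.22 in WT and -0.21 in KO. Between genotypes 0 of 38 were called by limma, with 0 at an unadjusted p below 0.05 in cortex and 12 in striatum, where 15.3% of all genes had one. DESeq2 called 3 in striatum (333 of all genes), edgeR and voom 0. Limma called 4 without WT replicate 8 (187 of all genes), 1 without WT replicate 5 (11) and 1 without KO replicate 4 (517). In striatum the smallest p values were those of Rgs4 (log2 difference -0.69, limma adjusted p = 0.12) and of the potassium channel Kcnj6 (1.33, adjusted p = 0.13). In cortex they were those of Cdk5 (-0.13) and Gnaq (0.09), with adjusted p = 1 for both.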

How the data were processed

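RNA of 15 mouse brain libraries was counted per gene. Per the submitters' processing notes, GRCm38 was the genome build and the tools were TopHat2 2.1.1, HTSeq 0.6.0, cutadapt 1.1, DESeq2 1.12.4 and FastQC 0.11.5. Those notes assign no steps to them, and the strand setting and annotation release are not given in the sources used here. The authors' deposited table holds a normalized signal, that is, read counts divided by 1 factor per library. Values lay within 0.001 of a whole read once that factor was undone, so whole reads were recovered.

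The 17030 genes that reached a normalized count of 10 in 3 or more libraries were tested. The test was limma (3.58.1, in R 4.3.3) with a variance trend and 4 group means fitted to all 15 libraries, which left 11 residual degrees of freedom. Its input was the log2 value after adding 1, so differences of low genes are understated. Benjamini-Hochberg adjustment covered every gene tested, and a gene was called at an adjusted p below 0.05. The fit was run on simulated counts, drawn independently with no tissue differences and no outlying library. That run does not cover the striatum libraries that stood apart. Recovered reads were also tested with edgeR 4.0.16, DESeq2 1.42.0 and voom, and pseudocounts, filters, scalings, library weights and libraries left out were varied. Fits without KO striatum replicate 4 and WT striatum replicate 5 or 8 were planned from the earlier results, and the fit without all 3 was added after seeing the data. RPKM was computed from recovered reads with exon lengths of GENCODE M21 (GRCm38), merged over transcripts. No stretch of 75 bases is shared between the receptor genes.

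The receptor genes, lists and tests were chosen with earlier results of these data known. Named were all receptor genes, up to 4 called genes with the smallest p from each list (otherwise the 2 with the smallest p), the other serotonin receptors, 5 serotonin-handling genes, and the first genes of marker lists. Interneuron and serotonin neuron markers were also summed, to 28140 to 33431 and 28.9 to 70.2 normalized counts in cortex and 38653 to 64527 and 89.9 to 218 in striatum. Gad1 and Gad2 had the highest means of the interneuron sum in WT striatum (24876 and 19575). Of its 10 genes, 4 were called higher and 3 lower in WT striatum (24.9% and 25.7% of all genes). Vip, for example, was at 48.4 in WT striatum against 1250 in WT cortex. Slc18a2 had the highest mean of the serotonin neuron sum in WT striatum (80.8), while Tph2 was lower there (18.2 against 30.4 in WT cortex).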

Additional observations from a re-analysis of the deposited data

Results flagged for a closer look

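Within groups of 4 libraries, 30 sets of values were examined for a library far from the others, which by chance occurs in about 1 of 20. There were 2 such libraries. Htr1a in WT cortex replicate 8 stood at 340 normalized counts, against 440 to 460 in the other libraries of the group. Htr7 in KO cortex replicate 3 stood at 391, against 284 to 293 in the other libraries of the group.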

How the results depend on the processing

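Over all settings 7 or 8 receptor genes were called between the tissues in WT, 6 or 7 in KO, and 0 between genotypes. Of all genes, 8601 were called between the tissues in WT and 6451 in KO in the main fit. With 1 library left out these counts ran from 7564 to 9241 in WT and from 5413 to 6769 in KO. In WT, Htr1a lost its call in 1 of 30 settings, without striatum replicate 5 (-0.77, limma adjusted p = 0.060). In KO, Htr1f lost its call with library weights (adjusted p = 0.065), in 5 fits without 1 library (0.065 to 0.13) and without striatum KO replicate 4 and WT replicate 8 together (0.14). The sign of 3 uncalled values turned. Htr7 between tissues in WT was 0.0132 by edgeR, 0.0133 by DESeq2, 0.218 without striatum KO 4 and WT 5, 0.0363 without these and WT 8, and -0.274 to 0.218 with 1 library left out. Htr6 between tissues in KO was 0.127 with library weights, 0.176 in the 3 fits without several striatum libraries and -0.355 to 0.176 with 1 library left out. Htr6 between genotypes in striatum was 0.0393 without KO 4 and WT 5. The causes were not tested.

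Counts over all genes between genotypes moved far more. In cortex 1 gene was called, against 3 by DESeq2 and 2 with library weights. In striatum the 13 became 22 with no filter, 20 with upper-quartile scaling, 333 by DESeq2, 3 by voom, 35 with library weights and 0 with only the groups compared. They became 344 without KO 4 and WT 5, 862 without KO 4 and WT 8, 261 without all 3, and 4 (without WT 6) to 517 (without KO 4) with 1 library left out. For the difference between tissues the 1 gene became 15 by DESeq2, 4 with library weights, 19, 26 and 34 in the same 3 fits, and 1 to 8 with 1 library left out.

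With the replicate number as a replicate block, 8 receptor genes were called between tissues in WT and 6 in KO, where Htr1f had -0.93 (adjusted p = 0.11), and 0 of all genes for the difference between tissues. For scale, the main fit without a block called 50.5% of all genes between tissues in WT and 37.9% in KO. Deviations of 7 same-numbered pairs correlated at 0.00369 to 0.142, 2 of them above 0.1, and those of differently numbered pairs at -0.168 to 0.127. Of 14 libraries, 11 correlated best with their same-numbered partner. The labels state no pairing, so the main fit held no replicate block. Whether equal numbers mark the same animal was not settled.

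By the longest transcript, which put Htr2c first in all groups but WT cortex, Htr2c was 3.83 and 5.49 RPKM in WT and KO cortex and 22.1 and 25.6 in WT and KO striatum, and Htr4 was 1.35 in KO striatum. Htr1d in cortex, at 9 to 33 reads, is the value most limited by depth.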
